A study of Arabidopsis thaliana with 3 samples.

Results

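A set of 10 Arabidopsis genes that act at the centromere, in the kinetochore and in cohesin was followed across WT and gip1 gip2 seedlings. They were picked by locus for what their proteins do, and are CENH3, CENP-C, KNL2, MIS12, NDC80, SMC1, SMC3, SCC3, SYN4 and SGO1. Of these 10, 9 stand in the deposited tables of 30271 genes and all 9 passed the filter on low values, while NDC80 (AT3G54630) is not analysed here.

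RNA was measured in whole seedlings aged 9 days by sequencing stranded libraries of total RNA from which ribosomal RNA had been depleted. WT was the Ws x Col-0 cross. T12 and T34 were both gip1 gip2 populations, from crossing gip1 (GABI_213D01) with gip2 (FLAG_36406), which are T-DNA insertion lines, and the series describes their root growth phenotype as increasingly severe. No further genetic or treatment difference between T12 and T34 is stated. GIP1 and GIP2 belong to the gamma-tubulin complexes from which microtubules grow, and in Arabidopsis they are also known to be needed for centromere architecture, which is the question that these genes bear on. Each group had 3 libraries. The series calls the replicates individual and does not say how plants were grown or how many seedlings went into 1 library, so a p-value reflects only how these libraries vary, which may be technical. Dividing cells are a small share of a seedling, and fewer cells that express a gene cannot be told apart from less RNA per cell in such bulk samples.

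The labels list the seventh library under WT and also under T34, and the sixth under no group. From the tables in which they stand, the seventh was used as WT replicate 1 and the sixth as T34 replicate 3. Total reads per library were 20963358 to 30438933. WT replicate 2 stood apart, with 640366 reads in nuclear protein-coding genes against 6248793 to 15159226 in the other 8 libraries. There 1 read was worth 11.687 normalized counts, so that 3 reads made 35.1 normalized counts. Reads in nuclear protein-coding genes were 40.3%, 2.49% and 23.2% of the total in WT replicates 1, 2 and 3. They were 60.7% to 63.4% in T12 and 38.1% to 40.6% in T34. T12 overlapped neither other group in this share, so in comparisons with T12 the make-up of the libraries cannot be told apart from the population. A normalized count is a gene's read count divided by a size factor of the library, as the authors deposited it. GIP2 had 0 to 4 reads in the WT libraries, 1 in each T12 library and 2 to 5 in the T34 libraries, too few to check the labels, and GIP1 is not analysed here. Results of the described genes that rest on WT replicate 2 are given with and without it.

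A centromere is marked by nucleosomes that carry the histone H3 variant CENH3. CENP-C binds them and forms the base of the inner kinetochore, KNL2 is needed to load CENH3, and the MIS12 complex joins this base to the outer kinetochore, whose NDC80 complex holds microtubules. Cohesin is a ring of SMC1, SMC3 and a kleisin such as SYN4, with SCC3 bound to it, that holds sister chromatids together, and shugoshin (SGO1) protects centromeric cohesin from being cut too early.

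Groups were compared by limma on log2(normalized count + 1), and a gene passed at an adjusted p under 0.05 (Benjamini-Hochberg, over all 20871 genes tested). Of the 9 genes, SMC3 was the one that was lower in both mutant populations, at 1.67-fold below WT in T12 and 1.63-fold below WT in T34. SGO1 was lower in T12, by 1.52-fold. CENH3, CENP-C, MIS12, SMC1, SCC3 and SYN4 did not pass this test in any comparison. Neither did KNL2, which passed in T34 when WT replicate 2, with 0 reads of it, was left out.

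In T12 against WT, 0 of the 9 genes were higher, beside 23.1% of the 20871 genes tested, and 2 were lower, beside 17.0%, with a median log2 fold change of -0.10 beside 0.06 for all genes. At an unadjusted p under 0.05, limma had 0 higher, as had edgeR, DESeq2 and limma-voom after adjustment. In T34 against WT, 0 were higher, beside 25.2%, and 1 was lower, beside 20.0%, with medians of -0.08 and 0.06. Here 0 were higher at an unadjusted p under 0.05 with limma, 0 with edgeR and DESeq2 and 1 (KNL2, adjusted p = 0.0498) with limma-voom. The shares of the 9 genes are near the background or below it. Both comparisons use the same WT libraries and are not independent.

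In T34 against T12, 0 of the 9 genes were higher, beside 0.858% of all genes tested, and 0 lower, beside 1.52%, and the count was also 0 in both directions at an unadjusted p under 0.05 with limma and after adjustment with edgeR, DESeq2 and limma-voom. Of the 9 values, 8 were positive, with a median of 0.17 beside 0.00 for all genes, and the range was -0.04 (SCC3) to 0.53 (KNL2). This lean is not particular to the 9 genes. The other 40 listed kinetochore and cohesin genes had 33 positive and 7 negative values (median 0.19). The mitosis genes described below had 16 and 0 (median 0.34), and the meiosis genes 2 and 3 (median -0.04). SMC3 differed by 0.03 ± 0.16 (95% interval -0.33 to 0.38) between the 2 populations.

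The bases just before the annotated start of SMC3, which fell, are shown beside those of SMC1 and SYN4, ring subunits that did not pass the test. Each is 250 bases long, 5′ to 3′ on the gene's strand, from the RefSeq annotation of assembly TAIR10.1, and none overlaps another annotated gene. The regions are chr2:11617497-11617746 on the minus strand for SMC3, chr3:20235256-20235505 on the plus strand for SMC1 and chr5:5315947-5316196 on the plus strand for SYN4. Capitals mark AACGG, the core of the mitosis-specific activator (MSA) element, on either strand, and the E2F site TTTCCCGC.
SMC3 upstream: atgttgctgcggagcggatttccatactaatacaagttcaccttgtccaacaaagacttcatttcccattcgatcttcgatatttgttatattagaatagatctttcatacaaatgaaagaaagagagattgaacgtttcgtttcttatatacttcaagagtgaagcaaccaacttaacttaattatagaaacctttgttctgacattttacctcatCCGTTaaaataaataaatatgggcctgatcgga
SMC1 upstream: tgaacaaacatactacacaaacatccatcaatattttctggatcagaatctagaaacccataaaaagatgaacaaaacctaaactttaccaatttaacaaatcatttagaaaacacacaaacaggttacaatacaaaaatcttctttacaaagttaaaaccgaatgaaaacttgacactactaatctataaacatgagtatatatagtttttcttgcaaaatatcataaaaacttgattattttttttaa
SYN4 upstream: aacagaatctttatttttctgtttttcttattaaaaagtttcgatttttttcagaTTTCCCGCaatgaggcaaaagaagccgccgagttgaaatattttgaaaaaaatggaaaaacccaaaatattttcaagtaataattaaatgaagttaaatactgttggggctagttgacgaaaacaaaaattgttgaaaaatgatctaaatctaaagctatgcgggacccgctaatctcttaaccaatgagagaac
The SMC3 window held 1 AACGG, on the opposite strand, the SMC1 window held neither motif, and the SYN4 window held 1 TTTCCCGC. Over the 10 genes, AACGG was found in 5 windows (CENH3, CENP-C, MIS12, SMC3 and SGO1), beside 20.6% of the windows of 27443 protein-coding genes. TTTCCCGC was found in 1 of the 10 (SYN4), beside 0.619%, and a second E2F site, TTTGGCGC, in 0, beside 0.361%. The motifs were searched on both strands and do not overlap each other. Unlike the printed windows, those of NDC80, SCC3, KNL2, SGO1, CENP-C and CENH3 reach into other annotated genes, by 245, 232, 105, 98, 82 and 23 bases. A match is a run of letters and shows no binding.

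SMC3 (AT2G27170, annotated as TTN7, at chr2:11609073-11617496), the SMC subunit that pairs with SMC1 in the ring, had 744, 1169 and 803 normalized counts in WT replicates 1, 2 and 3. It had 521, 516 and 559.7 in the T12 libraries and 533, 523 and 573 in the T34 libraries. Every library of T12 and T34 lay below every WT library, and T12 and T34 overlapped. The log2 fold change was -0.74 ± 0.16 (SE, n = 3 libraries per group, 95% interval -1.09 to -0.38) in T12 and -0.71 ± 0.16 (-1.06 to -0.35) in T34, with limma adjusted p = 0.00522 and 0.00556. WT replicate 2 was the highest of all, from 100 reads, which give an exact Poisson 95% interval of 951 to 1421 normalized counts for counting error only. Without that library the fall was smaller, -0.54 in T12 and -0.51 in T34, and still passed with limma (adjusted p = 0.00104 and 0.00119). It also passed with both doubtfully labelled libraries left out, at -0.86 and -0.87 (limma adjusted p = 0.00745 and 0.0101). In the authors' deposited table, SMC3 had log2 fold changes of -0.71 (adjusted p = 0.000325) in T12 and -0.68 (0.000585) in T34.

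SMC1 (AT3G54670, annotated as TTN8), its partner, had 724, 655 and 644 normalized counts in the WT libraries, 659.7, 659 and 637 in T12, and 710.1, 712 and 705 in T34. WT overlapped each mutant group. The log2 fold change was -0.05 ± 0.08 in T12 and 0.08 ± 0.08 in T34 (SE, n = 3, limma adjusted p = 0.687 and 0.492). The 95% intervals, -0.24 to 0.14 and -0.12 to 0.27, do not reach the size of the SMC3 fall. Since both genes are read in the same library, the ratio of their reads needs no scaling. That ratio was chosen after their values were seen, and the other read ratios given below were not planned either. There were 1.03, 1.79 and 1.25 SMC3 reads per SMC1 read in WT replicates 1, 2 and 3. The ratio was 0.782 to 0.879 in T12 and 0.735 to 0.812 in T34, so every mutant library lay below every WT library, by this measure also.

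**Figure D1:**
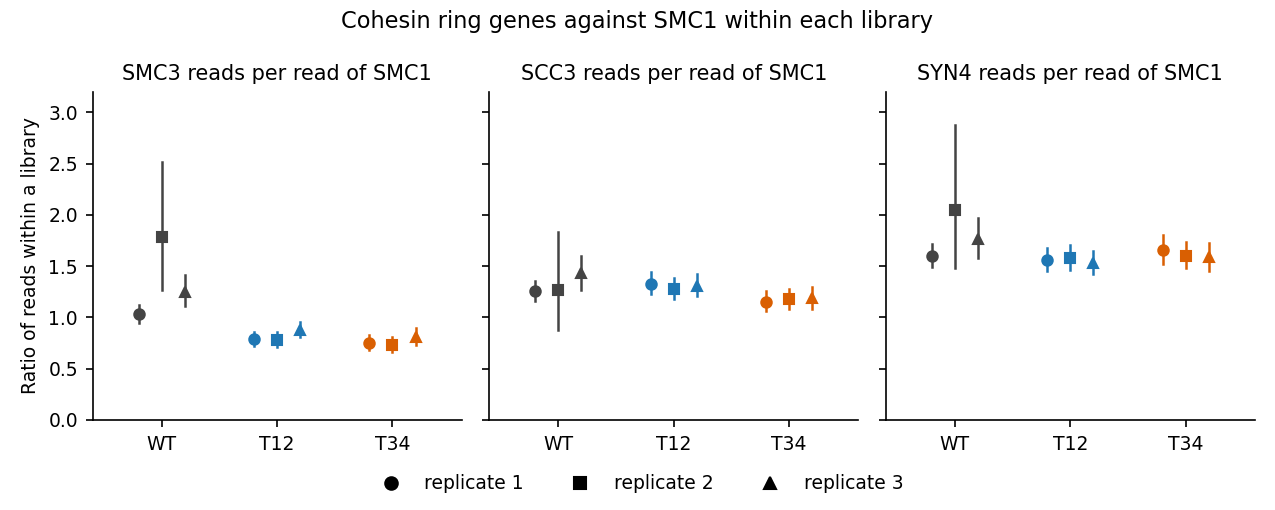
Reads of SMC3, SCC3 and SYN4 per read of SMC1 in each library (vertical axis, ratio from 0) for WT, T12 and T34, with 95% intervals that cover counting error only and the marker shape giving the replicate. The SMC3 ratio lies between 1.03 and 1.79 in WT and between 0.735 and 0.879 in the mutants. The SYN4 ratio overlaps between WT and T34 and lies below WT in T12. The SCC3 ratio overlaps between WT and T12 and lies below WT in T34.

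SCC3 (AT2G47980), the HEAT-repeat subunit bound to the kleisin, had 910.2, 829.8 and 919 normalized counts in WT, 879, 846 and 834.5 in T12, and 820, 838 and 836 in T34. The WT and mutant libraries overlapped. Its log2 fold changes were -0.05 ± 0.08 in T12 and -0.09 ± 0.08 in T34 (SE, n = 3, limma adjusted p = 0.633 and 0.395), with 95% intervals of -0.24 to 0.13 and -0.28 to 0.10. A neighbour on the other strand, AT2G47990, shares 112 bases with it and averaged 97.6 normalized counts, and the strand setting of the counting is not given in the sources used here. SYN4 (AT5G16270), a kleisin of the RAD21 kind, had 1158, 1344 and 1137 normalized counts in WT. It had 1030, 1044 and 973 in T12, all below WT, and 1176, 1140 and 1118 in T34, which overlapped WT. The log2 fold change of SYN4 in T12 was -0.25 ± 0.09 (SE, n = 3, 95% interval -0.46 to -0.04), with limma adjusted p = 0.056. It passed with TMM factors over nuclear genes (-0.27, limma adjusted p = 0.0449) and with upper quartile factors (-0.36, 0.0145), and over all 22 alternatives its adjusted p was 0.0145 to 0.158. In T34 the value was -0.08 ± 0.09 (limma adjusted p = 0.508). Per read of SMC1 there were 1.26 to 1.43 SCC3 reads in WT, 1.28 to 1.33 in T12 and 1.15 to 1.19 in T34, where every library lay below WT. There were 1.6 to 2.05 SYN4 reads per SMC1 read in WT, 1.53 to 1.58 in T12, where every library lay below WT, and 1.59 to 1.66 in T34. By counting error, the SYN4 95% interval of WT replicate 1, 1.49 to 1.72, takes in all the T12 values. For SCC3, that of WT replicate 2, 0.881 to 1.83, takes in all the T34 values, while that of WT replicate 3, 1.27 to 1.6, lies above them.

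SGO1 (AT3G10440, at chr3:3245329-3249355), the shugoshin whose known role in Arabidopsis is best described in meiosis, had 100.1, 117 and 119 normalized counts in WT. It had 69.1, 71.8 and 78.5 in T12 and 81.5, 85.9 and 98.0 in T34. Every library of both mutant groups lay below every WT library, and every T34 library lay above every T12 library. The log2 fold change was -0.60 ± 0.15 in T12 (SE, n = 3, 95% interval -0.94 to -0.27, limma adjusted p = 0.0107). In T34 it was -0.34 ± 0.15 (-0.67 to 0.00, limma adjusted p = 0.0956) and did not pass, though it did with upper quartile factors (-0.45, limma adjusted p = 0.0344) and with library weights (-0.37, 0.0386). The difference between the populations, tested directly, was 0.27 ± 0.15 (-0.07 to 0.61) with limma adjusted p = 0.465, so the response of SGO1 was not shown to differ between them. Per read of SGO2, its paralog, there were 0.435 to 0.525 SGO1 reads in WT, 0.304 to 0.379 in T12 and 0.417 to 0.458 in T34, so that T34 overlapped WT on this measure. SGO2 itself had log2 fold changes of -0.14 and -0.21 (limma adjusted p = 0.414 and 0.21). The authors' deposited table gives SGO1 -0.58 (adjusted p = 0.0184) in T12 and -0.31 (0.254) in T34.

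**Figure D2:**
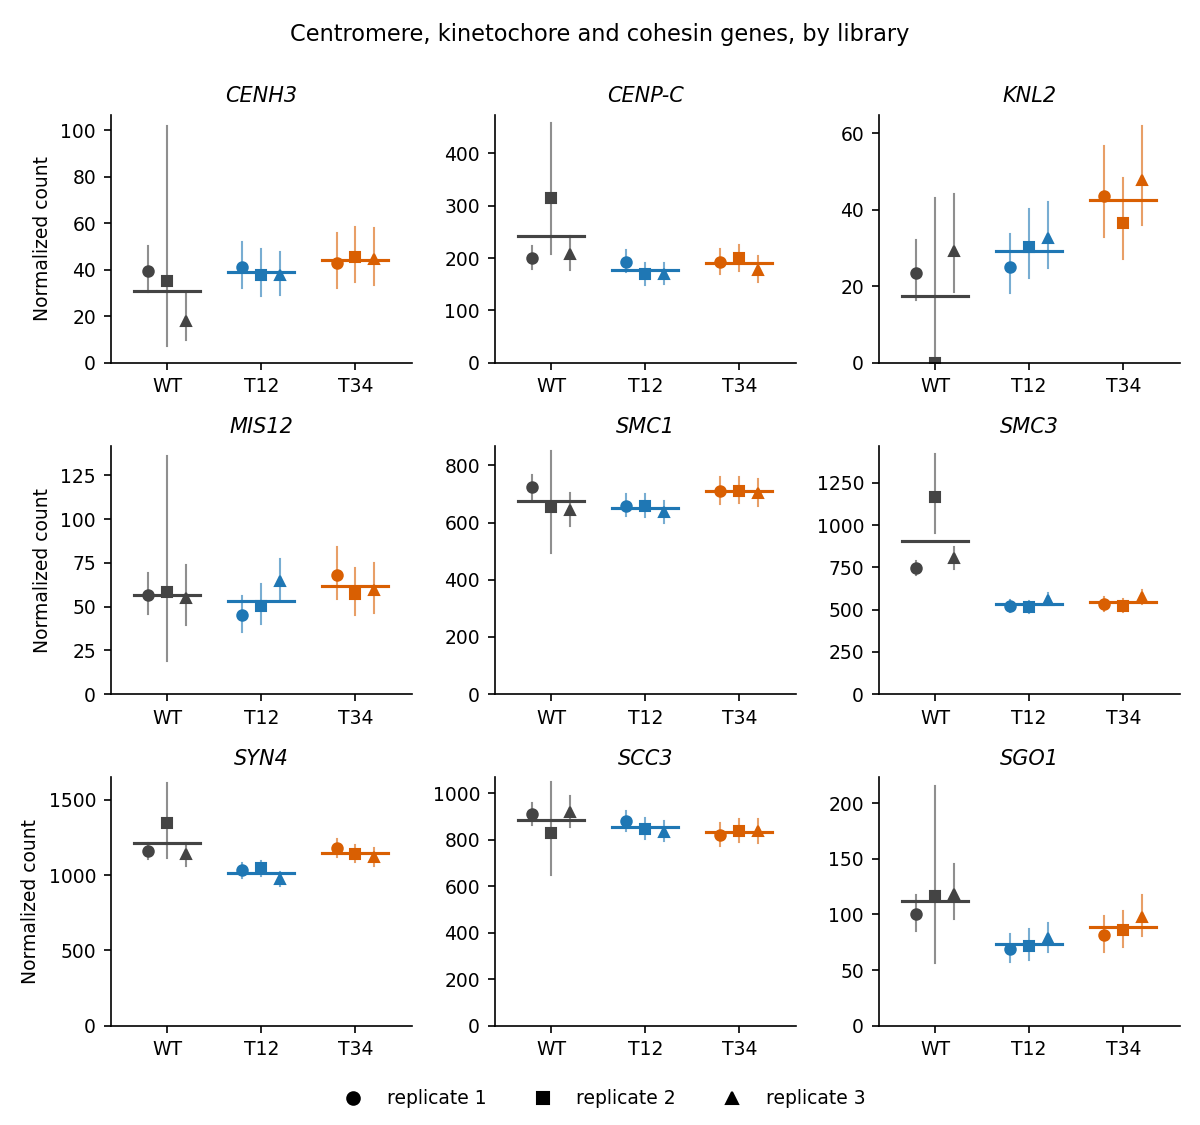
Normalized count (vertical axis, from 0) of the 9 genes in each library of WT, T12 and T34, with exact Poisson 95% intervals of the reads (counting error only) as thin lines and the group mean as a horizontal bar. SMC3, SGO1, CENP-C and SYN4 lie lower in the T12 libraries than in any WT library, though CENP-C and SYN4 did not pass the test. How many of all genes separate in this way was not counted. The intervals of WT replicate 2 (the WT squares) are wide.

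CENH3 (AT1G01370, annotated as HTR12), the centromeric histone, had 39.3, 35.1 and 17.8 normalized counts in WT replicates 1, 2 and 3, from 64, 3 and 14 reads. It had 41.1, 37.8 and 37.6 in T12 and 42.7, 45.6 and 44.4 in T34. Every T34 library was above every library of the other groups, by little, while T12 overlapped WT. The log2 fold changes were 0.40 ± 0.29 in T12 (SE, n = 3, 95% interval -0.25 to 1.05) and 0.58 ± 0.29 in T34 (-0.07 to 1.23), and with limma adjusted p = 0.295 and 0.128 neither passed. The lowest WT value, that of replicate 3, came from 14 reads. CENH3 passed only with libraries weighted by their agreement, at 0.69 in T12 and 0.92 in T34 (limma adjusted p = 0.0276 and 0.00841), and over all 21 alternatives that tested it the adjusted p in T34 was 0.00841 to 0.342. Per read of CENP-C there were 0.0859 to 0.196 CENH3 reads in WT, 0.213 to 0.223 in T12 and 0.222 to 0.25 in T34, so that every mutant library lay above every WT library, while T12 and T34 overlapped. The highest WT library, replicate 1, had a 95% interval of 0.147 to 0.257 by counting error, which takes in all the mutant values. CENP-C was itself lower in every mutant library than in every WT library, so this ratio is not a measure of CENH3 alone. Per read of CENP-C, KNL2 had 0 to 0.141 reads in WT, 0.13 to 0.192 in T12 and 0.184 to 0.269 in T34. MIS12 had 0.185 to 0.281, 0.234 to 0.381 and 0.288 to 0.354. Both overlapped WT in T12 and lay above it in T34. For MIS12, the 95% interval of WT replicate 1 by counting error, 0.221 to 0.356, takes in all the T34 values. These 2 ratios also have CENP-C below the line, so neither is a measure of KNL2 or MIS12 alone.

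CENP-C (AT1G15660), the inner kinetochore protein that binds CENH3 nucleosomes, had 201, 316 and 208 normalized counts in WT. It had 193, 169 and 169 in T12 and 192, 199.5 and 178 in T34. All mutant libraries lay below all WT libraries, the nearest pair being 201 in WT and 199.5 in T34. The log2 fold change was -0.42 ± 0.18 in T12 and -0.32 ± 0.18 in T34 (SE, n = 3, limma adjusted p = 0.0892 and 0.174), and without WT replicate 2, the highest library, the T12 value was -0.21 (limma adjusted p = 0.143) and the T34 value -0.11 (0.426). CENP-C passed in T12 with upper quartile factors (-0.52, limma adjusted p = 0.0411) and with library weights (-0.29, 0.039).

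KNL2 (AT5G02520), needed for CENH3 loading, was the lowest of the 9. It had 23.3, 0 and 29.3 normalized counts in WT (38, 0 and 23 reads), 25.1, 30.1 and 32.5 in T12, and 43.5, 36.6 and 47.7 in T34. The T34 libraries were all above WT and T12, and T12 overlapped WT. The fitted log2 fold changes, 1.74 ± 1.08 in T12 and 2.26 ± 1.08 in T34 (SE, n = 3, limma adjusted p = 0.229 and 0.117), rest on the 0 of WT replicate 2, where 0 reads allow up to 43.1 normalized counts (exact Poisson 95% bound). Without that library they were 0.15 and 0.67, and the T34 value passed (limma adjusted p = 0.582 and 0.0241). The edgeR test on whole reads gave 0.79 in T34 with all libraries (adjusted p = 0.0545) and 0.70 without WT replicate 2 (adjusted p = 0.0277). T34 and T12 differed by 0.53 ± 1.08 in the fit of all libraries (limma adjusted p = 0.908) and by 0.54 with edgeR without WT replicate 2 (adjusted p = 0.107). KNL2 shares 58 bases with AT5G02530 on the other strand, which averaged 130 normalized counts, and 246 bases with the non-coding gene AT5G00860, so part of its low count may belong to either.

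MIS12 (AT5G35520), the subunit that gives its name to the complex between the inner and outer kinetochore, had 56.5, 58.4 and 54.8 normalized counts in WT, 45.1, 50.7 and 64.5 in T12, and 68, 57.5 and 59.5 in T34. The 3 groups overlapped. Its log2 fold changes were -0.10 ± 0.19 and 0.12 ± 0.19 (SE, n = 3, limma adjusted p = 0.701 and 0.627).

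**Figure D3:**
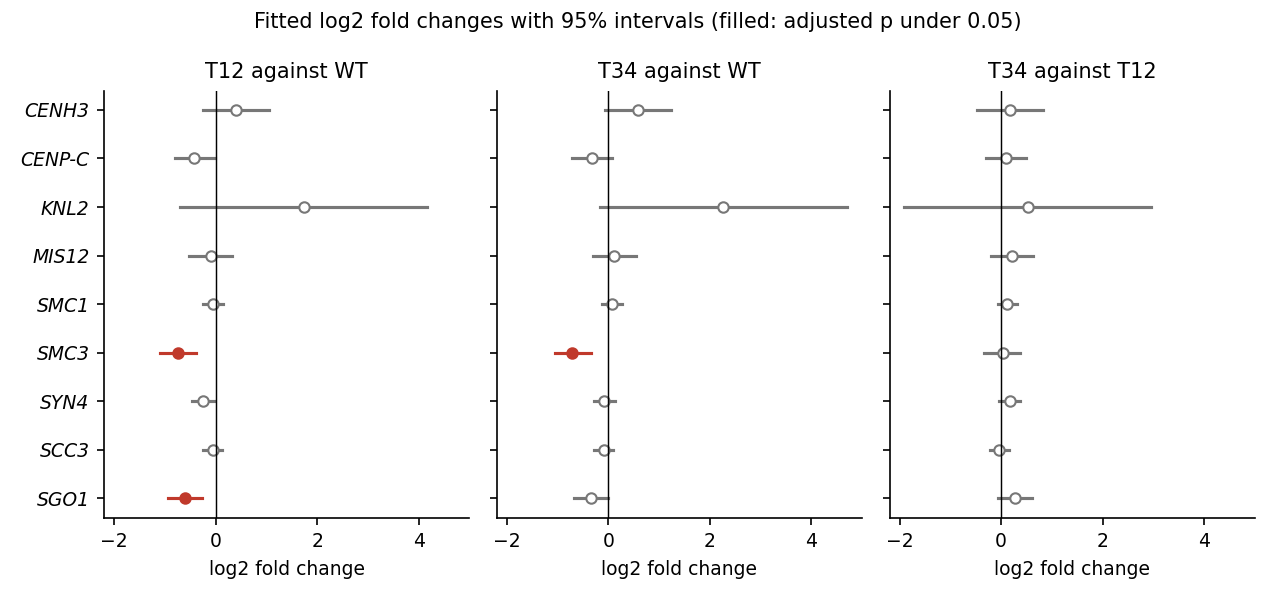
Log2 fold changes of the 9 genes (points) with 95% intervals (lines) for T12 against WT, T34 against WT and T34 against T12, from the limma fit of all 9 libraries, filled red where the adjusted p is under 0.05. SMC3 is filled in both comparisons with WT and SGO1 in T12, and the KNL2 interval, -0.17 to 4.70 in T34, is the widest of that panel.

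Per kilobase of coding sequence, SYN4 had the highest mean level over the 9 libraries, at 363 normalized counts, followed by SCC3 at 260, SMC1 at 185, SMC3 at 183, CENP-C at 95.7, MIS12 at 79.8, CENH3 at 70.6, SGO1 at 53 and KNL2 at 16.6. The order of the SMC pair differed between WT and the mutants on this scale. In WT, SMC3 spanned 206 to 323 and SMC1 176 to 198 normalized counts per kilobase. In T12, SMC3 spanned 143 to 155 and SMC1 174 to 180, and in T34 SMC3 spanned 145 to 158 and SMC1 193 to 195. MIS12 did not differ from CENP-C beyond the spread in T12 or T34, nor CENH3 from MIS12 in T12 or T34, nor SGO1 from CENH3 in WT, whose libraries overlapped.

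The other 40 genes listed for the inner and outer kinetochore, the spindle checkpoint and passenger complex, the cohesin ring and cohesin's loading, protection and release were all tested. In T12, 3 of them were higher and 8 lower (median -0.15), beside 23.1% and 17.0% of all genes tested. In T34, 3 were higher and 3 lower (median 0.09), beside 25.2% and 20.0%. The median of all genes was 0.06 in both. The 8 lower in T12 are a share near the background, and the other counts lie below it. T34 against T12 had 0 calls in either direction with limma and with edgeR, 7 higher at an unadjusted p under 0.05 with limma, and 2 and 3 higher with DESeq2 and limma-voom.

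Among the genes of the inner kinetochore list beside the described ones, EMB1674 (AT1G58210, annotated with a SANT-associated domain) was lower, at 88.3 ± 15.7 normalized counts in WT, 48.2 ± 10.8 in T12 and 45.4 ± 10.04 in T34 (SD, n = 3). Its log2 fold changes were -0.87 ± 0.25 and -0.95 ± 0.25 (SE, limma adjusted p = 0.0209 and 0.0125), and the call was lost in T12 without WT replicate 3 or T12 replicate 2 and in T34 without T34 replicate 2 (adjusted p up to 0.082 and 0.0515). MHF2 (AT1G78790), a histone-fold protein known from DNA repair, was higher, at 78.4 ± 3.18 in WT, 117 ± 6.64 in T12 and 138 ± 20.6 in T34. Its log2 fold changes were 0.57 and 0.80 (limma adjusted p = 0.0125 and 0.00194), and the T12 call was lost without T12 replicate 2 (adjusted p = 0.0538). CENP-O was lower in T12, by a log2 fold change of -0.35 (limma adjusted p = 0.0334), a call that was lost without WT replicate 3 and without any of the T12 or T34 libraries in turn. The list as a whole, with CENH3, CENP-C and KNL2 in it, had 1 of 8 higher and 2 lower in T12 (median -0.14) and 1 higher and 1 lower in T34 (median 0.30). Over all genes tested, 23.1% were higher and 17.0% lower in T12, with 25.2% and 20.0% in T34. The counts of the list are near these shares or below them.

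In the outer kinetochore, SPC24 (AT3G08880), a subunit of the NDC80 complex, had the largest fall of the 40 genes in either comparison. It had 111 to 199 normalized counts in WT, 51.0 to 57.6 in T12 and 59.0 to 69.6 in T34, so that no mutant library reached the WT range. The log2 fold change was -1.33 ± 0.22 in T12 and -1.13 ± 0.22 in T34 (SE, n = 3, limma adjusted p = 0.00145 and 0.00301), and the call held in every alternative that tested it. NUF2 and SPC25, which are subunits of the same complex, did not pass the test. NUF2 had log2 fold changes of 0.39 and 0.32 (limma adjusted p = 0.079 and 0.125), and SPC25 of -0.10 and 0.17 (0.745 and 0.579). EMB3006 (AT4G19350) fell by 0.57 and 0.66 on the log2 scale (limma adjusted p = 0.0133 and 0.00575), a call lost in T12 without T12 replicate 3 (adjusted p = 0.0522). The list had 0 of 6 higher and 2 lower in both comparisons by limma, with 1 (NUF2) and 0 higher at an unadjusted p under 0.05 and 0 by edgeR, DESeq2 and limma-voom. Over all genes tested, 23.1% were higher and 17.0% lower in T12, with 25.2% and 20.0% in T34. A list of 6 genes is too small to tell its counts apart from these shares.

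Of the 14 spindle checkpoint and passenger genes, 3 were lower in T12 and 0 higher (median -0.15), beside 17.0% lower and 23.1% higher over all genes, so that the lower share is near the background. These were the checkpoint genes MAD1 (-0.39, limma adjusted p = 0.0293) and BUB3.3 (-1.01, 0.0153) and the passenger subunit INCENP (-0.39, 0.0381). All 3 calls were lost without T12 replicate 2. The call of MAD1 was also lost without WT replicate 1, WT replicate 3 or T12 replicate 3 (adjusted p up to 0.11). That of INCENP was lost without any of the T12 or T34 libraries in turn and with DESeq2 (adjusted p up to 0.112 over all alternatives). In T34 the list had 0 calls with limma (median 0.16), beside 25.2% higher and 20.0% lower over all genes. It had 2 higher and 1 lower at an unadjusted p under 0.05, 1 and 1 with edgeR, 0 and 1 with DESeq2 and 2 and 1 with limma-voom. The higher count in T12 was also 0 at an unadjusted p under 0.05 with limma and 0 with edgeR, DESeq2 and limma-voom.

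Among the kleisins beside SYN4, SYN1 (AT5G05490), the REC8 kleisin of meiotic cohesin, was higher in T12, at 28.0 ± 5.31 normalized counts against 10.6 ± 2.85 in WT, the latter from 23 reads in all. Its log2 fold change was 1.34 ± 0.39 in T12 (SE, n = 3, limma adjusted p = 0.0229), and the call was lost without WT replicate 1, T12 replicate 2 or T12 replicate 3. In T34 it had 24.2 ± 11.3 normalized counts and 1.05 ± 0.39 (limma adjusted p = 0.054). SYN2 and SYN3 did not pass, at -0.02 and -0.48 in T12 and 0.34 and -0.14 in T34. SCC2, the subunit that loads cohesin, was lower in T12, at 739 ± 16.0 normalized counts against 959 ± 27.0 in WT (log2 fold change -0.37 ± 0.09, limma adjusted p = 0.00755), and was called in every alternative that tested it. In T34 SCC2 had -0.14 (limma adjusted p = 0.203), and T34 and T12 differed by 0.23 (0.233).

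ESP, the separase that cuts the kleisin at anaphase, was higher in both populations, at 237 ± 29.4 normalized counts in T12 and 227 ± 11.2 in T34 against 141 ± 5.86 in WT (SD, n = 3). Its log2 fold changes of 0.74 ± 0.12 and 0.69 ± 0.12 (SE, limma adjusted p = 0.00146 and 0.00188) passed in every alternative that tested it. PANS1, an inhibitor of the anaphase-promoting complex that protects cohesion, was higher in T34 (0.73 ± 0.14, limma adjusted p = 0.00241) and had 0.30 in T12 (0.114), and the direct difference between the populations was 0.43 (0.169). The cohesin ring list had 1 of 7 higher and 1 lower in T12 (median -0.05) and 0 higher and 1 lower in T34 (median -0.08). At an unadjusted p under 0.05, 1 ring gene (SYN1) was higher in T34 with limma, as was 1 with edgeR, 1 with DESeq2 and 0 with limma-voom. The list of loading, establishment, protection and release had 1 of 14 higher and 2 lower in T12 (median -0.12). In T34 it had 2 higher and 0 lower (median 0.05), and 0 were also lower at an unadjusted p under 0.05 with limma and with edgeR, DESeq2 and limma-voom. Over all genes tested, 23.1% were higher and 17.0% lower in T12, with 25.2% and 20.0% in T34. The limma counts of both lists after adjustment lie below these shares.

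**Figure D4:**
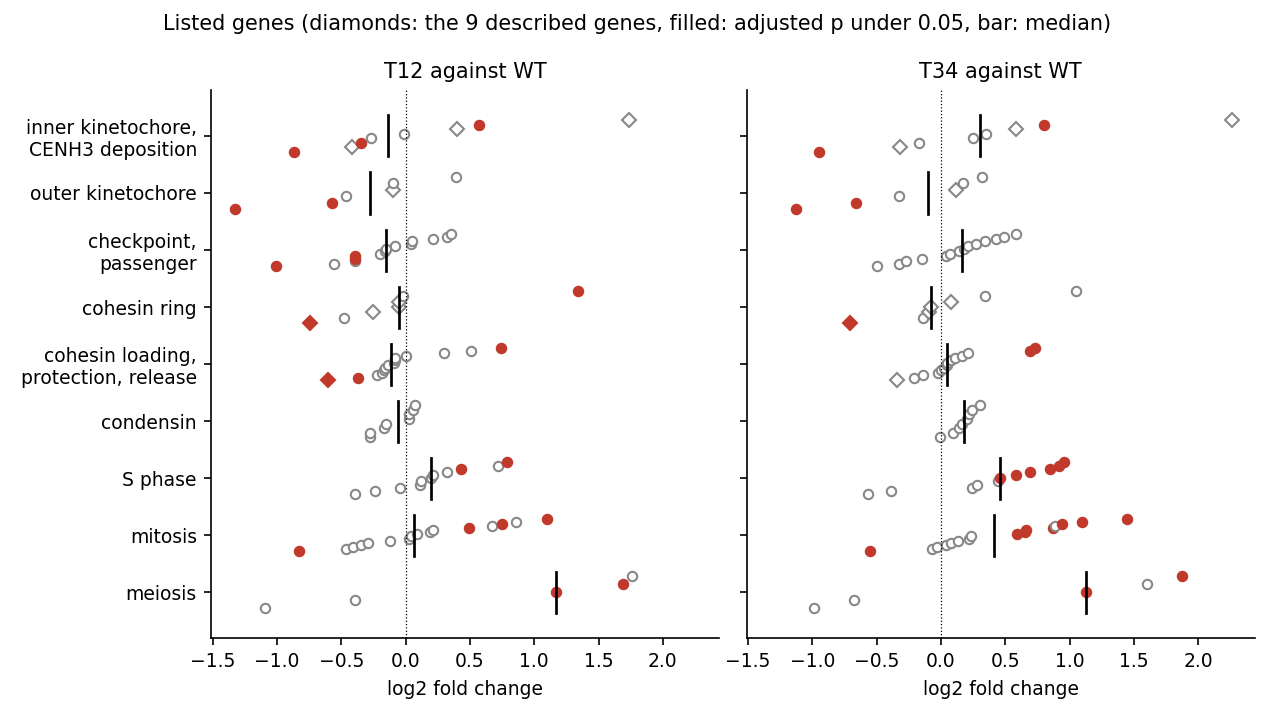
Log2 fold changes against WT (horizontal axis) of the tested genes of the 9 lists in T12 and T34, with diamonds for the 9 described genes, circles for the others, red filling where the limma adjusted p is under 0.05 and a black bar at each list's median. The falls in the kinetochore and cohesin lists reach -1.33 (SPC24), and the S phase and mitosis lists have medians of 0.46 and 0.41 in T34.

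The summed counts of the S phase and mitosis lists lay above the WT range in T34, while their genes did not all move one way. The summed normalized count of the 11 S phase genes was 1789 to 2162 in WT, 2042 to 2534 in T12 and 2602 to 3101 in T34, with 0 genes at 0 in any library. That of the 16 mitosis genes was 2026 to 2560, 2306 to 2360 and 2680 to 3280, also with 0 genes at 0. By limma, 2 of 11 S phase genes were higher in T12, beside 23.1% of all genes, and 6 in T34, beside 25.2%. The T34 count was 3 without T34 replicate 1, T34 replicate 3 or the doubtfully labelled libraries, and with upper quartile factors. It was 8 with library weights, and without WT replicate 2 with limma and with edgeR. The T12 count was 1 without WT replicate 3, T12 replicate 2 or T12 replicate 3. It was also 1 with DESeq2, upper quartile factors and the 2 groups alone, and 5 with library weights. CDC6 and CDT1A, which license replication origins and are named here after their values were seen, had negative log2 fold changes in T34, -0.57 (limma adjusted p = 0.0581, edgeR 0.0355) and -0.39 (limma adjusted p = 0.115). Of 16 mitosis genes, 3 were higher and 1 (CYCB2;3) lower in T12, beside 23.1% and 17.0% of all genes. In T34, 7 were higher and 1 lower, beside 25.2% and 20.0%. The T12 count higher was 2 with edgeR, DESeq2 and limma-voom, and without any of the T12 or T34 libraries in turn. It was also 2 without WT replicate 3, with upper quartile factors, with no filter and with the 2 groups alone. It was 5 without WT replicate 1, and 4 with library weights and without the doubtfully labelled libraries. The T12 count lower was 3 without WT replicate 3. The T34 count higher was 5 without T34 replicate 1, without T34 replicate 3 and with the 2 groups alone. It was 8 without WT replicate 1 and with library weights. SMC3 had 543 ± 26.3 normalized counts in T34, where both sums were above the WT range, and 532 ± 24.1 in T12 (SD, n = 3). The part of these markers in the values of the described genes was not tested.

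By Pearson correlation of log2(normalized count + 1) over the 9 libraries, the genes with a pattern most like that of SMC3 were RGLG2 (r = 0.996), HEB1 (0.992) and FRA3 (0.991), among 13092 genes with a mean of at least 100 normalized counts. For SGO1 they were HB31 (0.976), AT4G05070 (0.973) and GID1A (0.969), and for CENH3 AT2G15010 (0.940), EMB3127 (0.934) and RGP5 (0.930). The 9 points fall into 3 groups and share the depth of each library, and the values are a description.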

How the data were processed

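RNA of 9 libraries was compared in 3 groups of 3. Per the submitters' processing notes reads were handled with DESeq2 1.22.2, featureCounts 1.6.2, cutadapt 1.8.1 and HISAT2 2.1.0, on build TAIR10. For the settings, among them strand, annotation version and multi-mapping reads, nothing is given in the sources used here. The authors deposited, per the file headers, a normalized count per library (a signal, the count divided by a size factor), and log2 fold changes with p-values of their own comparisons, which are quoted only where named. Steps at low values gave back whole reads for 100% of the values at a tolerance of 0.01.

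The main test was limma 3.58.1 (trend) in R 4.3.3 on log2(normalized count + 1), all 9 libraries in 1 fit, for the 20871 genes that reached 10 normalized counts in 3 or more libraries, at a Benjamini-Hochberg adjusted p under 0.05. A count test was planned for raw counts, with this one for normalized values. On the recovered reads, edgeR 4.0.16 called 5261 genes higher and 4332 lower in T12, 5507 and 4936 in T34, and 615 and 753 in T34 against T12. DESeq2 1.42.0, limma-voom, other scalings, pseudocounts of 0.5 and 8, no filter, a minimum of 50, left-out libraries and library weights were alternatives. Fold changes are on this scale, where those of genes with 0 or 1 read in WT replicate 2 can be larger than those of edgeR (KNL2 in T12, 1.74 against 0.26). The fits were tested on simulated data.

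The 10 genes and the 9 lists (91 genes) were chosen with earlier results of these data known. All 10 were to be named with every library's value, listed genes where called, and for CENH3 and called members the 3 most correlated genes. Of the listed genes, 90 stand in the tables and 75 carry the listed name in the annotation (TAIR10.1) or the tables, and the other 16 are given by locus or annotated symbol. Coordinates and sequences are of TAIR10.1. Intervals on reads cover counting error only.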

Additional observations from a re-analysis of the deposited data

How the results depend on the processing

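The call of SMC3 in T12 and in T34, and that of SGO1 in T12, held in all 22 alternatives. In T12 the count of described genes higher was 1 (CENH3) with library weights, and the count lower was 4 with upper quartile factors, which added CENP-C and SYN4. In T34 the count higher was 1 with limma-voom, without WT replicate 2 and with edgeR without it (KNL2), and 1 with library weights (CENH3). The count lower in T34 was 2 with upper quartile factors and with library weights, which added SGO1. Over all genes, library weights called 6416 higher in T12, beside 4827 in the main fit. In T34 they called 6539 higher and 5451 lower, beside 5262 and 4166. Leaving out each library in turn gave 0 higher and 2 lower in T12, 0 to 1 higher and 1 lower in T34, and 0 in T34 against T12. The cause was not tested. Of the single values of the 9 genes, 577 kept their side of the threshold, 11 passed where they had not, and 0 reversed or lost a call. A minimum of 50 left 7 of the 9 genes.

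For the other 40 listed genes, chosen as a result after seeing the data, the count lower in T12 was 5 with the 2 groups alone, 4 without the doubtfully labelled libraries and 13 with library weights. Over all genes, these settings in turn called 2687 of 20871, 2997 of 20583 and 5339 of 20871 lower, beside 3555 of 20871 in the main fit. In T34 the count higher was 5 with edgeR, 5 with limma-voom, 7 with library weights and 6 with edgeR without WT replicate 2, and the count lower was 5, 5, 5 and 5 in these and 6 with upper quartile factors. Over all genes, the counts higher were 5507, 5479, 6539 and 5767, beside 5262 in the main fit. Those lower were 4936, 5071, 5451, 5199 and 5210, beside 4166. T34 against T12 had 2 higher with DESeq2, 3 with limma-voom, 2 with the 2 groups alone, 14 with library weights and 3 with edgeR without WT replicate 2. Over all genes, these called 690, 810, 988, 3193 and 972 higher, beside 179 in the main fit. Leaving out each library in turn gave 1 to 4 higher and 3 to 11 lower in T12, 3 to 7 and 2 to 5 in T34, and 0 to 2 higher in T34 against T12. The lowest T12 counts came without T12 replicate 2 and the highest T34 counts without WT replicate 2. Over all genes, T12 had 3773 higher and 2564 lower without T12 replicate 2, and T34 had 6138 and 5018 without WT replicate 2.

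Over all genes, upper quartile factors turned 4827 higher and 3555 lower in T12 into 4210 and 4649, and 5262 and 4166 in T34 into 4557 and 5210. In T34 against T12, counts over all genes ran from 2 higher and 12 lower without T34 replicate 2 to 3193 and 3104 with library weights. No paired analysis was possible because the library names carry no replicate numbers shared between groups. In WT replicate 2, where 1 read was worth 11.687 normalized counts, the values of CENH3 and KNL2 rest on 3 and 0 reads.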

Other observations

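Condensin compacts chromosomes and is built on its own pair of SMC proteins. In the main limma fit, 0 of its 8 genes were called in either direction in T12 or T34. Over all genes, 23.1% were higher and 17.0% lower in T12, with 25.2% and 20.0% in T34. At an unadjusted p under 0.05, 1 was lower in T12 and 1 higher in T34, edgeR and DESeq2 called 0, and limma-voom called 1 lower in T12 and 0 in T34. Without WT replicate 2, limma called 1 higher in T12 and 1 in T34, and edgeR called 1 higher in T34 (CAP-C, an SMC subunit, at 0.43, adjusted p = 0.0142, against 0.28 with all libraries). With library weights 1 was higher in T12 and 3 in T34, and with upper quartile factors 1 was lower in T12. The range of log2 fold changes was -0.28 to 0.07 in T12 and -0.01 to 0.30 in T34.

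Of 5 tested meiosis genes, limma called 2 higher and 0 lower in T12 and in T34. Over all genes, 23.1% and 25.2% were higher and 17.0% and 20.0% lower. DMC1, the meiotic recombinase, had 36.3 ± 23.0 normalized counts in WT, 100.5 ± 13.8 in T12 and 114 ± 22.0 in T34 (SD, n = 3), with log2 fold changes of 1.69 and 1.87 (limma adjusted p = 0.0196 and 0.0111), and the T12 call was lost without T12 replicate 1. Its lowest WT value, 11.69, is 1 read in WT replicate 2, and edgeR without that library gave 1.06 and 1.25 (adjusted p = 0.00506 and 0.00208). SDS, a meiotic cyclin, was higher too, at 1.17 and 1.13 (limma adjusted p = 0.0096 and 0.00991), in every alternative that tested it. Its lowest WT value is also 1 read in WT replicate 2. Over all fits its log2 fold change was 0.83 to 1.44 in T12 and 0.79 to 1.41 in T34. ZYP1A and ASY1, proteins of the meiotic chromosome axis and synapsis named here after their values were seen, did not pass with limma. ZYP1A had log2 fold changes of -1.09 and -0.99 (limma adjusted p = 0.159 and 0.188), from 49 reads in WT in all. Its highest WT value, 81.81 normalized counts, is that of the shallow WT replicate 2. The lowest WT value was 16.57, beside 8.98 to 16.8 in T12 and 11.2 to 16.75 in T34. ASY1 had -0.39 and -0.68 (limma adjusted p = 0.308 and 0.0794), and edgeR called it lower in T34 (-0.82, adjusted p = 0.0314). The summed count of the list was 128.6 to 131.4 in WT, 176 to 208 in T12 and 178 to 236 in T34. The WT sums rest on 214, 11 and 101 reads in replicates 1, 2 and 3, with 2 genes at 0 in WT replicate 2. The narrow WT range is therefore no measure of precision. SYN1, which is in the cohesin list, was higher in T12 as well.

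Of the S phase genes higher in T34, TSO2 had a log2 fold change of 0.92 and MCM6 of 0.69 (limma adjusted p = 0.00209 and 0.00203) in every alternative that tested them. The cytokinesis kinesin genes TES and HINKEL were at 1.45 and 0.66 in T34 (limma adjusted p = 0.00139 and 0.00615), also in every one.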
